A study of Mus musculus with 24 samples.

Results

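The enzymes and regulators that write, copy, remove and shield DNA methylation were followed in mouse embryonic stem cells that were wild type or labelled as Smad2 knockouts. The group was chosen by gene symbol and has 10 members, the maintenance factors Dnmt1 and Uhrf1, the de novo enzymes Dnmt3a and Dnmt3b with their partner Dnmt3l, the oxidising enzymes Tet1, Tet2 and Tet3, the glycosylase Tdg, and Dppa3. All 10 were found in both results tables of the study, which together hold 20625 genes, 19134 of them in both. Every member passed a level of 5 ppm, the mean count per 1000000 summed mean counts of a table, in both tables.

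Poly(A) RNA was sequenced from E14 cells, an embryonic stem cell line, grown on gelatin in medium with serum and leukaemia inhibitory factor (LIF). They were wild type or belonged to 1 of 2 lines, Smad2_KO1 and Smad2_KO2, labelled as knockouts of Smad2, a transcription factor of Nodal and activin signalling. Each genotype was kept for 12 h in control medium or with 200 nM INK128, an inhibitor of the kinase mTOR that puts these cells into a paused state, which gave 6 groups of 4 libraries. The labels do not say how the knockouts were made, whether a line is 1 clone, or whether the libraries of a group came from separate cultures, so the tests may measure technical spread only.

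DNA methylation in mammals sits mainly on cytosines next to guanines. De novo methyltransferases set it, the maintenance enzyme copies it after replication with the help of UHRF1, and TET enzymes oxidise it so that it is diluted by division or cut out by TDG. Mouse embryonic stem cells in serum carry high methylation and express both arms of this machinery, and their genome methylation depends on the balance between them.

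The data were analysed as a mean normalized count, a log2 fold change with its standard error (SE) and a p for each gene, once for control and once for paused cells. No value per library or per knockout line was analysed here, so the depth is not known and the changes could not be checked replicate by replicate. The tables do not name the numerator, and changes are read as knockout over wild type because Smad2 is lower in both. Smad2 fell by 0.35 (SE 0.07, adjusted p 6.5e-06) in control and by 0.63 (SE 0.06, adjusted p 4.1e-26) in paused cells per the authors' deposited tables. Its RNA thus remained at 78.6% and 64.6% of wild type, and loss of the protein is not shown by these data. The opposite reading would turn every direction. All 10 embryonic stem cell markers were present (Pou5f1, Nanog, Sox2 and others), at 135 ppm or more in control and 171 ppm or more in paused cells. Of these, 2 rose and 3 fell in control and 2 rose and 1 fell in paused cells per the authors' deposited tables. That is 50% and 30% of the list, beside 41.4% and 42.6% of all genes. Klf4, named after its values were seen, rose by 0.56 and 0.26 in the authors' deposited tables. The other called markers of this list, also named after their values were seen, went both ways. Nanog rose by 0.32 and 0.18 and Utf1 fell by 0.23 and 0.22 in the authors' deposited tables. Pou5f1 and Lin28a each fell by 0.18 in control cells of the authors' deposited table and were not called in paused cells. Primitive endoderm markers were low, with 7 of 7 present and a summed level of 22.3 ppm in control and 40.7 ppm in paused cells. Of these 7, 6 rose in each of the authors' deposited tables, with median changes of 1.12 and 1.27, where 19.5% of all genes rose in control and 20.5% in paused cells. Of 5 fibroblast markers 4 were present, summing to 16.8 and 17.2 ppm, and Lum had no row. Of these 4, 2 were called lower and 0 higher in each of the authors' deposited tables, where 21.9% and 22% of all genes were lower. Those called, named after their values were seen, were Col1a1 (-2.79 and -3.53) and Col1a2 (-0.87 and -0.93) in the authors' deposited tables. Of 6 trophoblast markers, summing to 361 and 432 ppm, 1 rose (Gata3) and 1 fell (Cdx2) in each of the authors' deposited tables. That is 33.3% of the list in each, beside 41.4% and 42.6% of all genes. Most of the sum came from Krt8 (151 and 170 ppm), Tfap2c (110 and 124 ppm) and Krt18 (83.1 and 120 ppm), none of them called. Cdx2 had 3.70 and 3.17 ppm and Elf5 0.33 and 0.17 ppm. The part of such cells in the values below was not tested, and in bulk RNA fewer cells of a type and less RNA per cell cannot be told apart.

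The sequences around the starts of Uhrf1, Tet2, Tdg and Dnmt3b are shown because these genes carry the changes called in control cells, together with Dppa3. Each runs 5′ to 3′ on the gene's strand from 250 bases before to 50 bases after the start in RefSeq on GRCm38.p6, the build mm10 that the submitters' processing notes name. Where RefSeq has several starts, the window nearest a principal transcript of GENCODE M21 was taken, or the first by position of 2 Dnmt3l windows that tied. Capitals mark letters that match CAGAC (the SMAD box), GGCGC (a GC-rich SMAD site) or AATNNACA (a FOXH1 site, FOXH1 being a DNA-binding partner of SMAD2), searched on both strands with overlapping matches counted separately.
Uhrf1, chr17:56303087-56303386, plus strand: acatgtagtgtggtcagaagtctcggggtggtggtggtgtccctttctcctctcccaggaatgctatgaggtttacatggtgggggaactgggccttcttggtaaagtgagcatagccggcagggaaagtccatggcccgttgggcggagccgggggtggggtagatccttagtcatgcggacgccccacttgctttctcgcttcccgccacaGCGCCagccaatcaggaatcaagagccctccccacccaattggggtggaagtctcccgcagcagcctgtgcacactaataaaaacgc
Tet2, chr3:133544341-133544640, minus strand: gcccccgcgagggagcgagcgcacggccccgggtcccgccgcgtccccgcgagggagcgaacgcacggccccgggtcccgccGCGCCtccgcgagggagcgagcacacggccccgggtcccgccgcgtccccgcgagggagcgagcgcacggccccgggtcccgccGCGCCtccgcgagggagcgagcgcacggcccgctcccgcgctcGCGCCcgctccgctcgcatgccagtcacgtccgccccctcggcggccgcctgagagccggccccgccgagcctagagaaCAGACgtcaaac
Tdg, chr10:82629588-82629887, plus strand: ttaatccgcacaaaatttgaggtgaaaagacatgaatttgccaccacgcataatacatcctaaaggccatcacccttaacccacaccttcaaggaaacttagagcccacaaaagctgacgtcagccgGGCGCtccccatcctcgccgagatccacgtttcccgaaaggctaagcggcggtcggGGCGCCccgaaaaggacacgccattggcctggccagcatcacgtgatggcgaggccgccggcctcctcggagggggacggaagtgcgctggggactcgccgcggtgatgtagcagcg
Dnmt3b, chr2:153649199-153649498, plus strand: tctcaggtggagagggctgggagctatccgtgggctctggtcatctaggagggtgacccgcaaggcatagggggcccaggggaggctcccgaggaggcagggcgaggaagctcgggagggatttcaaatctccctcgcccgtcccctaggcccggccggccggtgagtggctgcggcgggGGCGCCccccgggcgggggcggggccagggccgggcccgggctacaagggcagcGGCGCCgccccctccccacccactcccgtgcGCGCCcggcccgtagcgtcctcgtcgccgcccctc

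A window was found for 9 of the 10 members, all but Dppa3. The SMAD box was matched in 2 of the 9 windows, those of Tet1 and Tet2, against 49.6% of the 32851 windows of this length in the table. That count rests on the choice of window, since 6 of 9 members held the box in at least 1 of their windows, among them Uhrf1 with 2 matches in the window not shown. The 2 tied Dnmt3l windows each held 0 matches of any motif. The Tet1 and Tet3 windows lie 11794 and 14714 bases from the nearest principal start of GENCODE M21. The GC-rich site was matched in 7 of 9, against 36.9% of all windows, with 5 matches in Dnmt3b, 3 in Tet2, 3 in Tdg and 1 in Uhrf1. The FOXH1 letters were matched in 0 of 9, against 12.2% of all windows. The Tet2 window held 57 CG pairs, Dnmt3b 30, Tdg 26 and Uhrf1 12, where the median window held 7. The letters GGCGC hold a CG pair themselves, and the comparison with all windows did not allow for CG content. These matches are letters in the windows shown and say nothing of binding.

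Levels between genes were compared as ppm per kb of the longest coding transcript, and each is a mean over the libraries of a table, with no spread. Dnmt3l, which has no catalytic activity of its own and stimulates the de novo enzymes, stood highest at 277 ppm per kb in control and 328 in paused cells. Uhrf1, which reads half-methylated DNA and recruits DNMT1, followed with 141 and 116 ppm per kb. Dnmt3b had 113 and 75.0 ppm per kb, and Dnmt1, the copying enzyme, 67.0 and 81.2. The other six lay lower. Tet1 had 32.4 and 43.2 ppm per kb, Dnmt3a 27.4 and 22.0, and Dppa3, which keeps UHRF1 from chromatin and protects the oocyte genome, 31.0 and 12.5. Tdg, which excises the oxidised bases, had 23.1 and 16.6 ppm per kb and Tet2 14.0 and 15.3. Tet3, the TET enzyme of the zygote, was lowest with 1.35 and 2.30 ppm per kb, and it alone of the 10 lay under the median of all genes with a length, 3.71 in control and 4.12 in paused cells. Without values per library, it cannot be said which neighbours in this order differ beyond their spread.

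**Figure D1:**
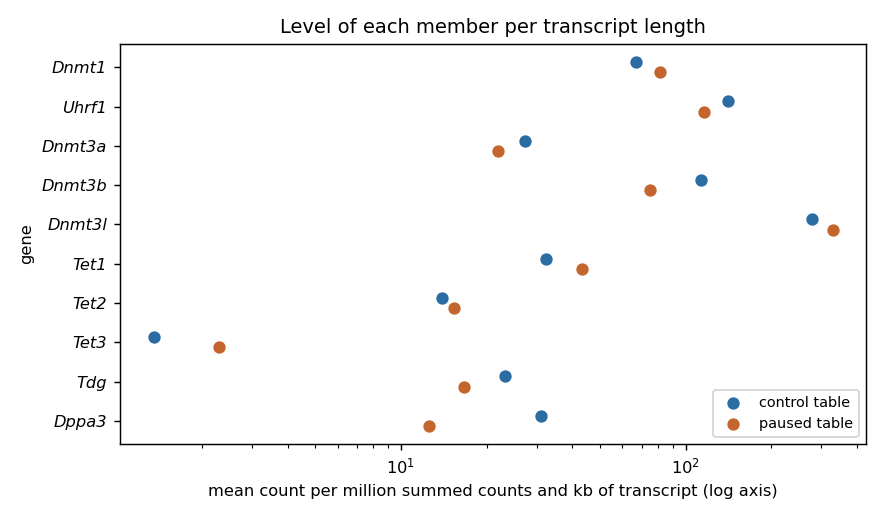
Mean level of each member in the control and the paused table, in ppm of the summed mean counts per kb of transcript, on a log axis. Dnmt3l is highest and Tet3 lowest in both tables, and Dppa3 has the widest gap between them, from 31.0 to 12.5.

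The means of the tables, which were normalized separately and pool genotypes, also set paused beside control cells, with no test. The mean of Dppa3 went from 1190 to 462 normalized counts in the authors' deposited tables, and its share of the summed counts in paused cells was 0.403 of that in control cells. Only 2.43% of 19132 genes had a lower ratio. Tet3 had the largest ratio of the members, 1.70, and Tet1 followed at 1.33. The ratio was 0.662 for Dnmt3b, 0.718 for Tdg, 0.804 for Dnmt3a and 0.825 for Uhrf1, and 1.21 for Dnmt1, 1.18 for Dnmt3l and 1.10 for Tet2. The median log2 ratio of all genes was 0.09. Levels per genotype were rebuilt from the mean and the change, assuming 8 or 4 knockout libraries in each table. The wild-type ratio of Dppa3 was then 0.422 or 0.416. That of Dnmt3l was 0.992 or 1.03, against 1.28 or 1.33 in the knockout, and that of Tet2 1.28 or 1.24, against 1.04 or 1.00.

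The comparison in control cells asked which members changed in the Smad2 knockouts outside pausing. Of the 10 members, 5 had, in the authors' deposited table, an adjusted p under 0.05, beside 41.4% of all 19778 genes tested and 50% of the 10793 genes with at least 5 ppm. The members' share is thus near the background. Tet2 and Uhrf1 rose, 2 of 10 where 19.5% of all genes did and 18.4% of those with at least 5 ppm. Dppa3, Dnmt3b and Tdg fell, 3 of 10 where 21.9% of all genes did and 31.6% of those with at least 5 ppm. The median change of the members was 0.04 in the authors' deposited table, against 0.00 for all genes, and the 10 values ran from -0.50 to 0.59. No member changed 2-fold.

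In paused cells the authors' deposited table called 7 of the 10, beside 42.6% of all 19979 genes and 51.6% of the 11006 genes with at least 5 ppm. Dnmt3a, Dnmt3l, Uhrf1, Tet2 and Tet3 rose, 5 of 10 where 20.5% of all genes did and 19.7% of those with at least 5 ppm. Tdg and Dppa3 fell, 2 of 10 where 22% of all genes did and 31.9% of those with at least 5 ppm. The median change was 0.15 in the authors' deposited table, against -0.00 for all genes, with values from -0.62 to 0.40. Called in both tables were 4 of the 10, Uhrf1, Tet2, Tdg and Dppa3, each in the same direction, beside 30.4% of the 19132 genes in both. Asked for more than a 1.2-fold change, Tet2 in control cells was the only call left in either table, where 10.6% of all genes were called in each. With the statistic scaled to the middle spread of all genes 0 of 10 were called in either, beside 1.48% of all genes in control and 2.25% in paused cells.

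**Figure D2:**
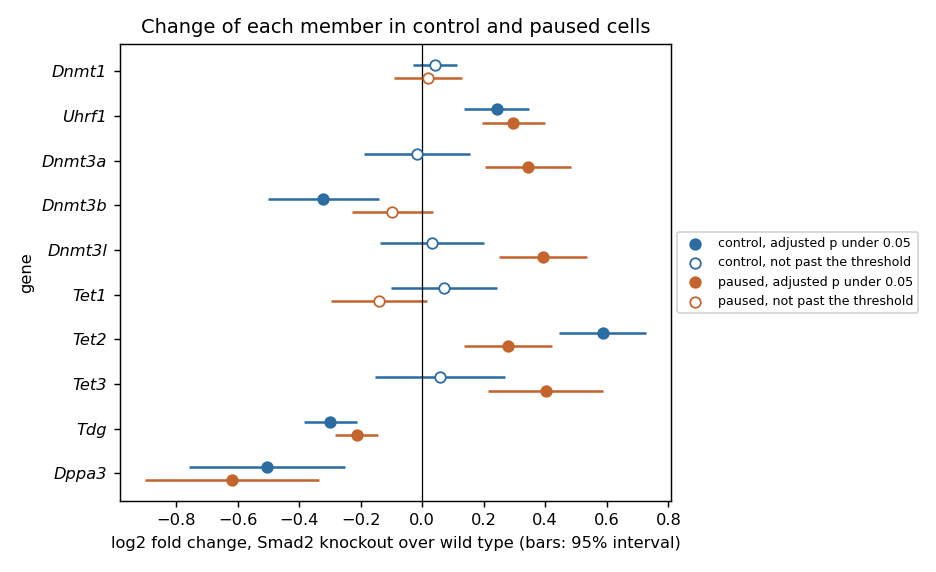
Log2 fold change of each member, knockout over wild type, with its 95% interval in control and paused cells per the authors' deposited tables. Filled points had an adjusted p under 0.05: 5 in control and 7 in paused cells, with Uhrf1 and Tet2 higher and Tdg and Dppa3 lower in both.

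Of the 2 maintenance factors, Uhrf1 was called in both conditions and Dnmt1 in neither. Dnmt1, at means of 18120 and 21107 normalized counts, had changes of 0.04 (SE 0.04, adjusted p 0.39) and 0.02 (SE 0.06, adjusted p 0.806) in the authors' deposited tables. The 95% intervals of Dnmt1, -2.11% to 8.16% in control and -6.06% to 9.47% in paused cells, span no change. With equal summed counts in both genotypes the control value of Dnmt1 became 0.10 and was called (adjusted p 0.0249). Uhrf1, at means of 23280 and 18477 normalized counts, rose by 0.24 (SE 0.05, adjusted p 4.4e-05) in control cells of the authors' deposited table. It rose by 0.30 (SE 0.05, adjusted p 1.63e-07) in paused cells of the authors' deposited table, or by 18.3% and 22.7%. The 2 rises of Uhrf1 differed by 0.05 (SE 0.08, p 0.48).

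Of the de novo group, Dnmt3b was called in control cells and Dnmt3a and Dnmt3l in paused cells. Dnmt3b, the main de novo enzyme of the early epiblast, had a mean of 22541 normalized counts in control cells, where it fell by 0.32 (SE 0.09, adjusted p 0.00204) in the authors' deposited table, to 80.0% of the wild-type level. In paused cells its mean was 14361 and its change -0.10 (SE 0.07, adjusted p 0.245) in the authors' deposited table, with an interval from -14.7% to 2.40%. Dnmt3a, with means of 12200 and 9441 normalized counts, had a change of -0.02 (SE 0.09, adjusted p 0.899) in control cells of the authors' deposited table. In paused cells it rose by 0.34 (SE 0.07, adjusted p 1.04e-05) in the authors' deposited table, to 127% of wild type. Dnmt3l, with means of 23278 and 26470, likewise had 0.03 (SE 0.09, adjusted p 0.805) in control cells and rose by 0.39 (SE 0.07, adjusted p 6.2e-07) in paused cells per the authors' deposited tables, to 131% of wild type. None of the 3 was called in both conditions.

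Aire, the gene of a thymic transcription regulator, overlaps Dnmt3l on the opposite strand in GENCODE M21. It rose by 0.83 (SE 0.11, adjusted p 2.96e-13) in control and by 1.17 (SE 0.09, adjusted p 3.15e-35) in paused cells per the authors' deposited tables, at 17.6 and 13.5 ppm. Dnmt3l had 505 and 598 ppm, given here without length because the pair may share reads. The libraries were directional, per the labels' protocols, but whether the counting used strand is not given in the sources used here, so reads of this pair may not be fully told apart.

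Of the TET enzymes, Tet2 had the steepest rise of the 10 members in control cells. At a mean of 5911 normalized counts it rose by 0.59 (SE 0.07, adjusted p 1.24e-14) in the authors' deposited table, or by 50.1% (95% interval 36.2% to 65.5%). In paused cells, at a mean of 6235, it rose by 0.28 (SE 0.07, adjusted p 5.25e-04) in the authors' deposited table, or by 21.3%. Tet1, the most abundant TET transcript per length, had 0.07 (SE 0.09, adjusted p 0.56) in control and -0.14 (SE 0.08, adjusted p 0.147) in paused cells per the authors' deposited tables, at means of 21458 and 27473. Its interval in paused cells ran from -18.6% to 1.09%. Tet3, at means of 680 and 1113 normalized counts, had 0.06 (SE 0.11, adjusted p 0.711) in control cells and rose by 0.40 (SE 0.10, adjusted p 1.32e-04) in paused cells per the authors' deposited tables, to 132% of wild type. Tet2 was thus the 1 TET gene called in both conditions.

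Tdg and Dppa3 were lower throughout. Tdg, at means of 3728 and 2576 normalized counts, fell by 0.30 (SE 0.04, adjusted p 1.74e-10) in control and by 0.21 (SE 0.04, adjusted p 3.05e-08) in paused cells per the authors' deposited tables, to 81.3% and 86.3% of wild type. The processed pseudogene Tdg-ps on chromosome 15 shares sequence with Tdg, and its changes of -0.30 (SE 0.05) and -0.19 (SE 0.05) in the authors' deposited tables lay close to those of Tdg. The counting could split reads between these copies, so the value of either is uncertain. Dppa3, at means of 1190 and 462 normalized counts, fell by 0.50 (SE 0.13, adjusted p 4.9e-04) in control cells of the authors' deposited table. It fell by 0.62 (SE 0.14, adjusted p 1.05e-04) in paused cells of the authors' deposited table, to 65.2% of wild type. These were the steepest falls of the 10 in both conditions, with the widest standard errors.

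**Figure D3:**
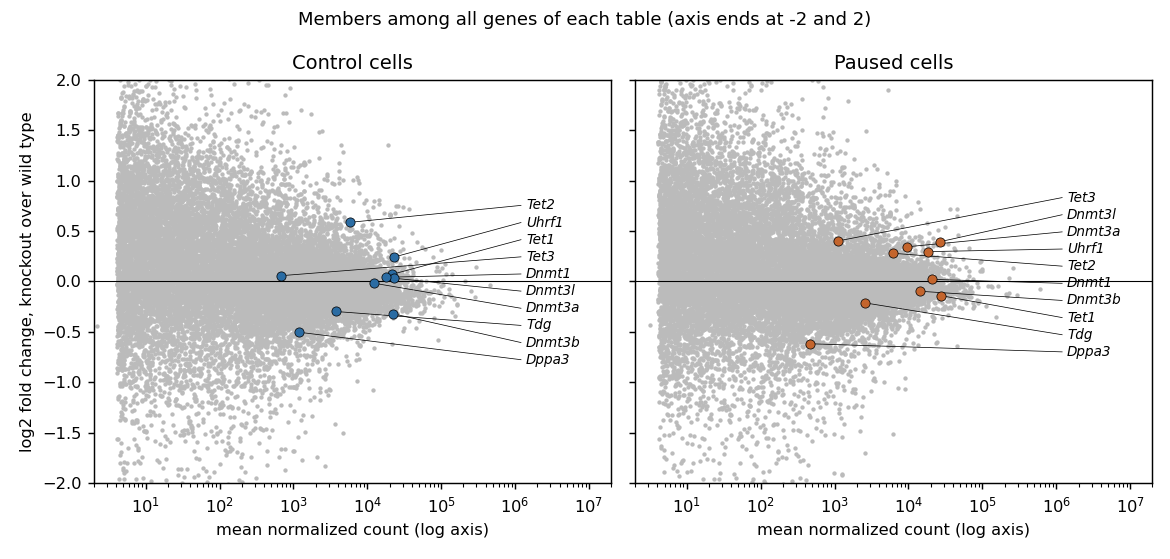
Log2 fold change against mean normalized count (log axis) for all genes (grey) and the 10 members (coloured) in each of the authors' deposited tables. The change axis ends at -2 and 2, beyond which lie 224 genes in control and 262 in paused cells, and the members sit at means of 462 or more with changes between -0.62 and 0.59.

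Whether the effect of the Smad2 knockout differed between the conditions was tested per gene as the paused change minus the control change over the combined standard error, with p from the normal distribution on both sides, adjusted by Benjamini-Hochberg over 19132 genes. By this test 0 of the 10 members passed at an adjusted p under 0.05, beside 1.44% of all genes, and 4 had an unadjusted p under 0.05, beside 12.9% of all genes. Those were Dnmt3l (0.36, SE 0.11, p 0.00133, adjusted p 0.0712), Dnmt3a (0.36, SE 0.11, p 0.00142, adjusted p 0.0726), Tet2 (-0.31, SE 0.10, p 0.00253, adjusted p 0.0966) and Tet3 (0.34, SE 0.14, p 0.0165, adjusted p 0.245). When only genes with at least 5 ppm entered the adjustment, Dnmt3l (adjusted p 0.0481) and Dnmt3a (adjusted p 0.0489) passed, 2 of 10 where 2.93% of 10956 genes did. The calls of Dnmt3a, Dnmt3l and Tet3 in paused cells alone, and of Dnmt3b in control cells alone, are therefore not shown to differ between the conditions over all genes. The difference was 0.22 (95% interval -0.00 to 0.45) for Dnmt3b, -0.21 (-0.44 to 0.02) for Tet1, 0.09 (-0.03 to 0.20) for Tdg, -0.11 (-0.49 to 0.27) for Dppa3 and -0.02 (-0.15 to 0.11) for Dnmt1.

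**Figure D4:**
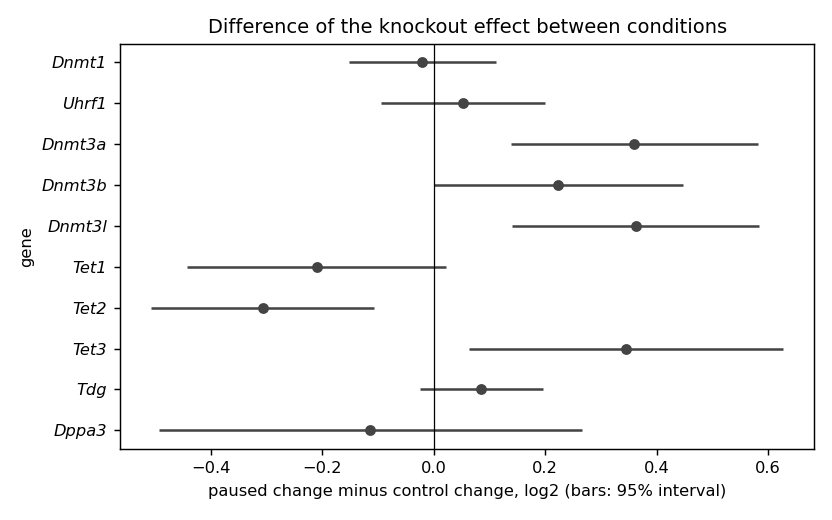
Paused change minus control change of each member on the log2 scale, with 95% intervals. The intervals of Dnmt3a, Dnmt3l and Tet3 lie above 0 and that of Tet2 below it, before adjustment over all genes.

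Other genes of the pathway were taken from 6 lists, and each gene was read with the same tests. Of 15 partners of methylation, 3 rose and 3 fell in control cells, and 3 rose and 3 fell in paused cells, per the authors' deposited tables (medians 0.01 and 0.05). That is 40% in each table, near the 41.4% and 42.6% of all genes. Zfp57, which keeps imprints methylated, rose by 0.24 and 0.30 in the authors' deposited tables, while Pcna, the replication clamp that binds DNMT1, fell by 0.16 and 0.29. Cdca7, an activator of the remodeller HELLS, fell by 0.26 and 0.15 in the authors' deposited tables. Prdm14, a repressor of de novo methylation in naive cells, rose by 0.39 in control cells of the authors' deposited table, and its paused value of 0.22 was not called (adjusted p 0.0777).

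Of 18 partners of demethylation, 2 rose and 4 fell in control and 4 rose and 3 fell in paused cells per the authors' deposited tables (medians 0.02 and -0.00). The shares called, 33.3% and 38.9%, were under those of all genes. Cxxc5, a CXXC protein that binds TET2, fell by 0.45 and 0.59 in the authors' deposited tables. Gadd45a fell by 0.35 and 0.29 whereas Gadd45g rose by 0.42 and 0.44 in the authors' deposited tables. Gadd45b rose by 0.32 in paused cells of the authors' deposited table, and its control value of 0.04 was not called (adjusted p 0.778). Of 7 genes of methyl-CpG-binding protein families, 1 rose and 1 fell in control and 3 fell in paused cells per the authors' deposited tables (medians -0.01 and -0.07). That is 28.6% and 42.9% of the list, under the 41.4% of all genes in control and near the 42.6% in paused cells. Zbtb33 fell by 0.25 and 0.31 in the authors' deposited tables. Mbd2 rose by 0.26 in control cells of the authors' deposited table, and its paused value of 0.11 was not called (adjusted p 0.0858). In paused cells of the authors' deposited table Mbd3 fell by 0.19 and Zbtb38 by 0.21. Their control values of -0.09 and -0.02 were not called. The difference between conditions was not called for Mbd2, Mbd3 or Zbtb38 (adjusted p 0.483, 0.730 and 0.457).

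Of 13 genes of methyl donor supply, 5 rose and 3 fell in control and 2 rose and 5 fell in paused cells per the authors' deposited tables (medians -0.05 and 0.01), or 61.5% and 53.8% of the list beside 41.4% and 42.6% of all genes. Bhmt, an enzyme that makes methionine from homocysteine and betaine, rose by 1.76 and 1.54 in the authors' deposited tables, at a mean under 5 ppm, and is named after its values were seen. Tdh, which feeds threonine into one-carbon metabolism, fell by 0.48 and 0.46, and Ahcy, which clears S-adenosylhomocysteine, by 0.40 and 0.22 in the authors' deposited tables. Mat2a, which makes S-adenosylmethionine, fell by 0.33 in paused cells and had -0.05 (adjusted p 0.138) in control cells per the authors' deposited tables. Shmt1, which passes a carbon unit from serine to folate, fell by 0.22 and 0.16 in the authors' deposited tables. Of 6 genes that supply or clear TET cofactors and inhibitors, 2 rose in control and 2 in paused cells and 0 fell in the authors' deposited tables (medians 0.00 and 0.11). That is 33.3% of the list in each, under the 41.4% and 42.6% of all genes called in either direction. Of all genes, 19.5% rose in control and 20.5% in paused cells. Idh2 rose by 0.54 and 0.40 and Idh1 by 0.36 and 0.30 in the authors' deposited tables, both enzymes that make the 2-oxoglutarate used by TET proteins.

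The last list held 15 germline genes that are known to be silenced by methylation of their promoters. Of these, 11 rose and 3 fell in control cells, with a median of 0.61, and 12 rose and 0 fell in paused cells, with a median of 0.96, per the authors' deposited tables. Of all genes, control cells had 19.5% called higher and 21.9% lower, and paused cells 20.5% and 22%. The list was chosen with earlier results of these data known, so its excess over all genes is not independent evidence. Dazl rose by 1.10 and 1.30, Sohlh2 by 0.98 and 1.12, Stk31 by 0.87 and 1.21 and Taf7l by 0.52 and 0.96 in control and paused cells per the authors' deposited tables. Taf7l had 4.78 ppm in control and 30.4 ppm in paused cells, so it reached 5 ppm through the paused table alone. The 3 that fell in control cells, named after their values were seen, were Tdrd1 (-0.70), Sycp3 (-0.42) and Ddx4 (-0.37) in the authors' deposited table. Methylation of these promoters was not analysed here. Of the 7 primitive endoderm markers given above, 6 rose and 0 fell in each condition, and a link between the 2 lists was not tested.

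**Figure D5:**
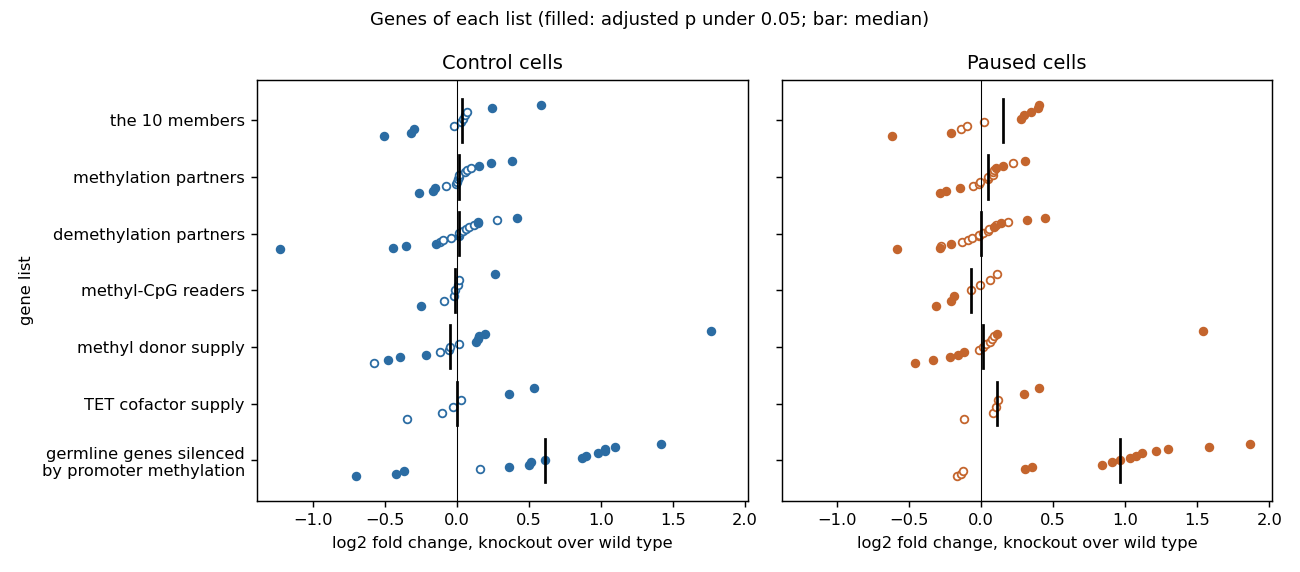
Log2 fold change of each gene of the 10 members and of 6 related lists in the authors' deposited tables, with filled points for an adjusted p under 0.05 and a bar at the median. The germline list has medians of 0.61 in control and 0.96 in paused cells, while the medians of the other lists lie between -0.07 and 0.15. All lists were chosen with earlier results of these data known.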

How the data were processed

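Per the labels, 24 poly(A) libraries of E14 cells fall into 6 groups of 4 by genotype and treatment. The submitters' processing notes name FastQC, Trim Galore, HISAT2, featureCounts, DESeq2 and the build mm10, without versions or roles. The authors deposited 2 results tables. Per the file headers, their mean normalized count is a signal the authors averaged over libraries, their change and its standard error are on the log2 scale, their statistic is a score equal to the change over its standard error, and a p-value and Benjamini-Hochberg adjusted p-value were deposited with it, which recomputation gave again within 2% for p and 1% for adjusted p. In control cells 2 genes have no p. Which libraries entered each table, the annotation and the strand setting are not given in the sources used here.

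The deposited tests were used across all genes, with Python 3.11.15, numpy 2.4.6, pandas 2.3.3 and scipy 1.17.1. Depth per library is unknown, so the deposited standard errors are the measure of precision (medians 0.11 and 0.10). The difference test was checked on simulated tables, drawn with normal noise of the deposited standard errors. That check takes those errors as right, so it cannot show whether they are large enough. Lengths came from GENCODE M21, found for 87.8% and 87.2% of genes. The members and lists were chosen with earlier results of these data known, and 2 genes of the lists are not reported here and are left out of every list count. The 10 members and Smad2 were always named, and per related list at most 4 genes called in either table, with at least 5 ppm as the mean of both tables, by size of change. Alternatives were an adjusted p under 0.01, a test against 1.2-fold, a statistic scaled to its middle spread, centring on the median gene, equal summed counts (4 wild-type and 8 knockout libraries assumed), a minimum of 5 ppm and a 2-fold change.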

Additional observations from a re-analysis of the deposited data

Results flagged for a closer look

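The test of the difference between the changes in control and paused cells, with Benjamini-Hochberg adjustment over all genes, was passed by 3 of 74 genes of the related lists (4.05%) and 1 of 27 markers (3.70%), beside 1.44% of all genes. Mat2a had -0.28 (SE 0.06, adjusted p 0.00342), with a fall in paused cells only. Ahcy had 0.18 (SE 0.05, adjusted p 0.0143), its fall being smaller in paused cells. Dpep3, a germline gene with means of 47.0 and 65.9 normalized counts in the authors' deposited tables and named after its values were seen, had 1.08 (SE 0.27, adjusted p 0.0122). Klf4, the marker, also named after its values were seen, had -0.30 (SE 0.08, adjusted p 0.0264), its rise being smaller in paused cells. Alternatives for these 4 genes were added after the data were seen. Once the statistic was divided by its middle spread, 0 of the 4 passed (adjusted p 0.109 to 0.304), where 0.183% of all genes did. Against 1.2-fold 0 passed, where 0.0105% of all genes did. At an adjusted p under 0.01 only Mat2a passed, and at 2-fold only Dpep3, where 0.533% and 0.146% of all genes did. All 4 passed with changes centred on the median gene and with equal summed counts, where 1.51% and 1.54% of all genes did. With the minimum of 5 ppm so did the 3 that reach it, all but Dpep3, where 2.93% of 10956 genes did.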

How the results depend on the processing

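No paired analysis was possible because the tables hold no values per library, and for the same reason leaving out replicates, other size factors and a filter on counts per library were not run. Over the 6 alternatives applied to the 30 values of single members, 153 of 180 kept direction and side of the threshold, 23 lost the call, 3 gained one and 1 turned sign: Dnmt3a in control cells, never called, became 0.038 with equal summed counts. Most of the 30 values were not called at the start and had no call to lose. Of the 12 that were called, all 12 lost the call with the scaled statistic and 11 against 1.2-fold. The 2-fold alternative is not among these 6 and was applied to the counts of calls only. The 5 members called in control cells became 1 (Tet2) when tested against 1.2-fold, 0 once the statistic was divided by its middle spread over all genes, and 0 at 2-fold, where 10.6%, 1.48% and 6.98% of all genes were called. The 7 in paused cells became 0 under each of these 3, where 10.6%, 2.25% and 7.1% of all genes were called. The 0 called for the difference became 2 with the minimum of 5 ppm. The cause was not tested, other than that fewer genes enter the last adjustment and that 2-fold and 1.2-fold ask for larger changes. The middle spread of the statistic over all genes was 2.76 in control and 2.80 in paused cells, against 1 for a standard normal. Equal summed counts shift every change by 0.06 in control and 0.04 in paused cells.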
